A study of Mus musculus with 12 samples.

Results

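The expression of 10 imprinted genes was compared between vitrified and fresh mouse ovarian follicles. They were taken by symbol and are Zrsr1, Commd1, Peg3, Impact, Sgce, Plagl1, Mest, Grb10, Cdkn1c and Igf2r. The set was chosen by earlier results of this comparison, in which the fold change of Zrsr1 had passed the threshold, and all 10 were found in the authors' deposited table, which lists 11806 genes. Libraries came from 6 vitrified and 6 fresh follicles of CD-1 mice, an outbred stock, aged 16 days, and vitrification is cryopreservation by cooling into a glass-like state. Follicles of both groups were embedded one at a time in 0.5% alginate and cultured for 8 days in medium with recombinant follicle-stimulating hormone at 10 mIU/mL, and each library was made from the lysate of a single follicle by a Smart-seq protocol. A follicle holds an oocyte with its granulosa and theca cells, so less RNA per cell and fewer cells of a type cannot be told apart. Which follicles came from the same animal is not given by the labels, and the p-values measure only the spread between these libraries.

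Imprinted genes are transcribed mainly from the copy inherited from a given parent. Methylation of DNA laid down in the oocyte or in sperm marks the copies, and the oocyte sets its own marks while it grows in the follicle. Many imprinted genes act on growth, metabolism or the cell cycle. Zrsr1 is a retrogene, an intronless copy of the X-linked splicing gene Zrsr2, and sits inside the gene Commd1 on the opposite strand. Its maternal allele is methylated from the oocyte on, and the paternal allele is expressed. The table gives no reads by allele, so nothing below bears on which parental copy was transcribed.

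The promoters of Zrsr1 and Commd1 are shown because these genes share a locus and Zrsr1 is the gene of the 10 that passed the threshold. Each runs from 250 bases before to 50 bases after the start of a RefSeq transcript on GRCm38.p6, written 5′ to 3′ on the gene's own strand, with CpG sites, the substrate of methylation, in capitals. Zrsr1 is at chr11:22971755-22972054 on the plus strand. Commd1 is at chr11:22982235-22982534 on the minus strand.
Zrsr1 promoter: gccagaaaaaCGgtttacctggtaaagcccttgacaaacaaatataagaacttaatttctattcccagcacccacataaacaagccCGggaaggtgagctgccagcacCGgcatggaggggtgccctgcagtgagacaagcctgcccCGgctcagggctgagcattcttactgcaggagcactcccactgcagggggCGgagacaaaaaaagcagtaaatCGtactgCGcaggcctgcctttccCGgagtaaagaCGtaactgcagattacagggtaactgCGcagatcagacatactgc
Commd1 promoter: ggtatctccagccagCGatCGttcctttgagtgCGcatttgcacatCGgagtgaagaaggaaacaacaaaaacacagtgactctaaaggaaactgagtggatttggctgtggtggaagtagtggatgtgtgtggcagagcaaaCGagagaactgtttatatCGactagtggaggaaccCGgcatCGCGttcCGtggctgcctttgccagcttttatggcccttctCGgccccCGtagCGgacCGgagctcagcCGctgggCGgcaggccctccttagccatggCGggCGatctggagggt

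The Zrsr1 window held 10 CpG sites and the Commd1 window 18. Of 32851 promoter windows of the same length, 94.6% held at least 1 CpG, the median was 7, and 56.5% and 70.3% held fewer than Zrsr1 and Commd1. Promoter windows were matched for 7 of the 10 genes, and their CpG counts ran from 8 at a start of Mest to 45 at a start of Grb10. A second RefSeq start of Commd1, with its window at chr11:22972817-22973116 on the minus strand and 17 CpG sites, lies inside the Zrsr1 transcript. No methylation was measured here.

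Zrsr1 was higher in vitrified follicles, and the other 9 genes did not pass the threshold of 0.05 on the adjusted p. Zrsr1 encodes a relative of the small subunit of the splicing factor U2AF, which recognises the end of introns. It was 3.14-fold higher in vitrified than in fresh follicles in the authors' deposited table, with a log2 fold change (log2FC, vitrified over fresh) of 1.65, p = 8.4e-05 and adjusted p = 0.024. A 95% interval of 0.83 to 2.47 was derived from that fold change and p, as were all intervals below. Zrsr1 was picked for this change, so its values are a description. The count was thus 1 of 10 genes, higher in vitrified follicles, where 0.529% of the 10963 tested genes passed in either direction, 0.246% passed and were higher, and 0.283% passed and were lower. Nothing is read from this share, since the 10 genes were chosen with the comparison known.

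Zrsr1 had a low total in these libraries. Its total over the 12 libraries was 124 in the authors' deposited table, above that of 26.3% of the listed genes, and no value per follicle is given. By log2FC it was the 16th highest and by p the 39th lowest of the tested genes in the authors' deposited table. With its derived standard error of 0.42, a change of 2.90-fold would have been needed to pass, so it lay just above that limit. If the deposited p comes from a normal distribution and is read against a t distribution with 10 degrees of freedom instead, the adjusted p of Zrsr1 is 0.78 and it no longer passes.

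**Figure D1:**
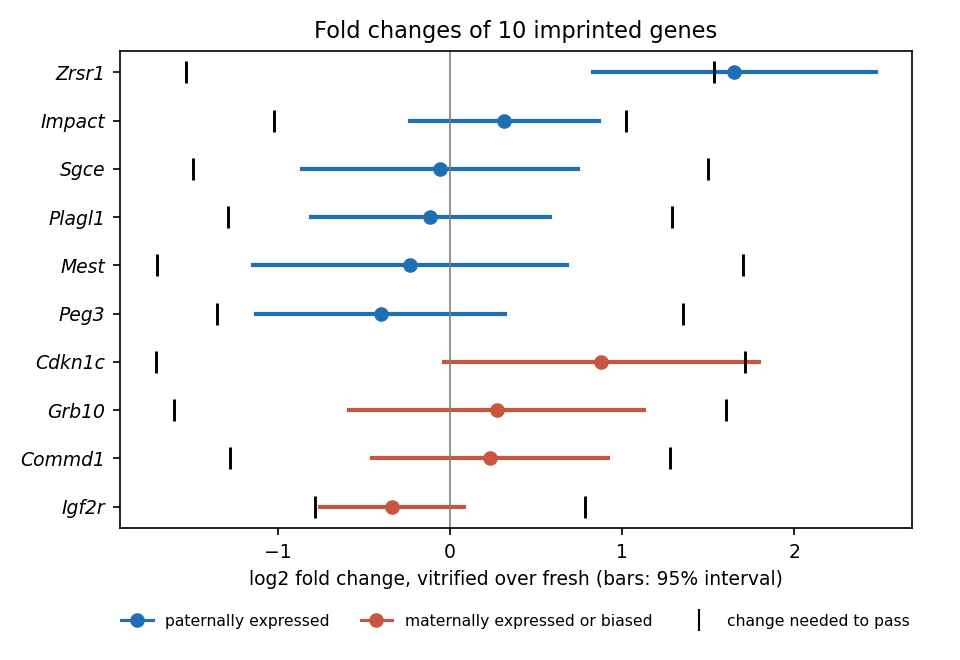
Log2FC of each of the 10 genes, vitrified over fresh (x axis), with derived 95% intervals as bars. Black ticks show the change each gene would have needed to pass the adjusted p of 0.05. Of these 10, only Zrsr1, at 1.65, lies beyond its tick, and the intervals of the other 9 genes include 0.

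The locus of Zrsr1 was examined because reads of overlapping genes can be credited to either. Zrsr1 runs from 22972005 to 22976496 on chromosome 11 of GRCm38 on the plus strand, as a single exon of 4492 bases in GENCODE. Commd1 runs from 22896136 to 22982382 on the minus strand and encloses it. Exons of Commd1 cover 412 of these bases, or 9.17%, on the opposite strand. The rest of the 4492 bases lie opposite Commd1 introns, where reads of unspliced Commd1 RNA would also overlap Zrsr1. A Commd1 exon from 22973900 to 22974102 lies wholly within the coding sequence of Zrsr1, with 203 bases, and another, from 22972651 to 22972859, covers 209 bases outside it. The sources used here do not give whether counting used strand, and without strand these reads cannot be told apart.

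Commd1, which encodes a regulator of copper handling and endosomal sorting, is biased to the maternal copy in some tissues. It had a log2FC of 0.23 (-0.45 to 0.92) and adjusted p = 0.999 in the authors' deposited table, on a total of 149. The host gene did not pass, and its interval, derived under a normal distribution, lay within 2-fold in both directions. Under a t distribution, as tried for Zrsr1, it would be wider, and such intervals were not computed. The difference between Zrsr1 and Commd1 was not tested, since it needs values per follicle.

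Another gene of the table spans both. Gm28048, on the minus strand from 22834744 to 22982090, was 10.4-fold lower in vitrified follicles in the authors' deposited table, with a log2FC of -3.38 (-5.16 to -1.60), adjusted p = 0.042 and a total of 79.0. It thus fell, opposite in sign to Zrsr1, but its exons share 0 bases with the Zrsr1 exon. All 4492 bases of that exon lie opposite an intron of Gm28048. Of its 2746 exonic bases, 294 lie in Commd1 exons on the same strand and 2449, or 89.2%, in exons of B3gnt2, a glycosyltransferase gene that makes N-acetyllactosamine chains. B3gnt2 had a log2FC of 1.07 (0.41 to 1.73) and adjusted p = 0.16 in the authors' deposited table, on a total of 295. Gm28048 and B3gnt2 thus had log2FC values of opposite sign while 98.1% of the 50-base windows of Gm28048 occur in B3gnt2 or Commd1. The sources used here do not give how the authors' counting split such reads, so the values of Gm28048, B3gnt2 and, to a lesser extent, Commd1 are uncertain.

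**Figure D2:**
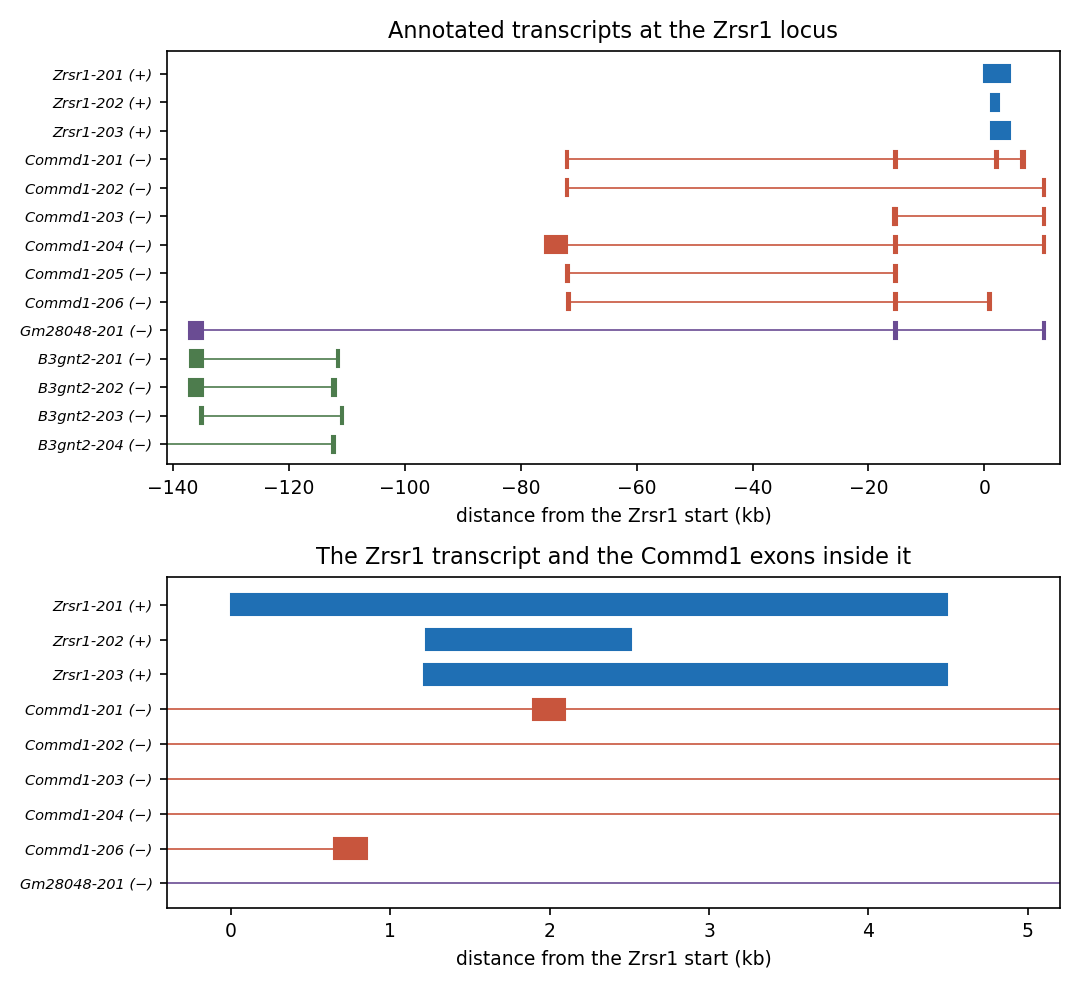
Annotated transcripts of Zrsr1, Commd1, Gm28048 and B3gnt2 by distance from the Zrsr1 start in kb (x axis), boxes for exons and lines for introns, with strand beside each name. In the lower panel, exons of a pair of Commd1 transcripts lie inside the Zrsr1 transcript, and Gm28048 crosses it only as an intron.

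Reads of Zrsr1 could also have been confused with those of its parent Zrsr2, which encodes a splicing factor for the minor class of introns. Over 1282 aligned coding bases, 80.6% were identical. Of 358 windows of 50 bases taken every 25 bases from Zrsr1 transcripts, 0 occurred in transcripts of another gene in the same orientation. On the opposite strand, 27, or 7.54%, occurred in annotated Commd1 transcripts, which leave out most intron sequence. The longest identical run in the coding alignment had 37 bases. It is shown in capitals with 10 bases on either side, from Zrsr1 at chr11:22973990-22974046 on the plus strand and from the spliced Zrsr2 coding sequence, which is on the minus strand of chromosome X and crosses an intron there between 163939397 and 163940156 (GENCODE transcripts, GRCm38).
Zrsr1 coding: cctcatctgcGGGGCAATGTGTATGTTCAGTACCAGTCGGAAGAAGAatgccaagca
Zrsr2 coding: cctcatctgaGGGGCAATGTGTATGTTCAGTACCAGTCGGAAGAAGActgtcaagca
Zrsr2 had a log2FC of 0.38 (-0.31 to 1.08) on a total of 117 in the authors' deposited table, with adjusted p = 0.98.

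Other genes of U2AF and of the minor spliceosome, a list of 16 with Zrsr2, included 13 tested genes, of which 0 passed the adjusted p of the authors' test. At an unadjusted p under 0.05, 1 was lower and 0 were higher, where 7.02% of all tested genes were under that limit, 3.24% higher and 3.79% lower. That gene was Sf3b1, which helps to recognise the branch point, with a log2FC of -0.39 and adjusted p = 0.51 in the authors' deposited table. Armc7 stood at 0.52 and Zcrb1, a protein of the minor spliceosome, at -0.16 on the log2 scale in the authors' deposited table. In the authors' deposited table the U2AF subunit genes U2af1 and U2af2 stood at 0.07 and -0.11 on the log2 scale. The median log2FC of the 13 genes was 0.07, against -0.02 over all tested genes.

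The other paternally expressed genes lay on both sides of 0. Peg3 encodes a zinc finger transcription factor and had the highest total of the 10 genes, 2222, or 167 per kb of annotated exon. Its log2FC was -0.40 (-1.13 to 0.32) in the authors' deposited table, with adjusted p = 0.98. Impact encodes an inhibitor of the stress kinase GCN2 and had a log2FC of 0.32 (-0.23 to 0.87) and adjusted p = 0.98 in the authors' deposited table. Mest, an enzyme-like protein of the endoplasmic reticulum linked to growth, stood at -0.23 (-1.15 to 0.68), and Plagl1, a zinc finger factor that restrains proliferation, at -0.11 (-0.81 to 0.58) on the log2 scale in the authors' deposited table. Sgce, the epsilon subunit of the sarcoglycan complex, was nearest to 0 with a log2FC of -0.06 (-0.86 to 0.74) in the authors' deposited table. Adjusted p for Mest, Plagl1 and Sgce was 0.999 each in the authors' deposited table.

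Among the maternally expressed genes, Cdkn1c had the value farthest from 0 of the 10 genes after Zrsr1, but did not pass. It encodes an inhibitor of cyclin-dependent kinases and had a vitrified over fresh fold of 1.84, with a log2FC of 0.88 (-0.04 to 1.80), a p of 0.060 and adjusted p = 0.75 in the authors' deposited table. Its total of 74.6 in the authors' deposited table was the lowest of the 10, and a change of 3.28-fold would have been needed to pass. Grb10, an adaptor that dampens insulin and insulin-like growth factor receptors, is maternal in most tissues and paternal in neurons. Its log2FC was 0.27 (-0.59 to 1.13) in the authors' deposited table, with adjusted p = 0.999. Igf2r encodes the receptor that carries insulin-like growth factor 2 to lysosomes, and it had a log2FC of -0.34 (-0.76 to 0.08) and adjusted p = 0.87 in the authors' deposited table.

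The precision of these values differed between genes. The fold change needed to pass ran from 1.72 for Igf2r to 3.28 for Cdkn1c, so an estimate of exactly 2-fold would have passed in Igf2r but not in the other 9 genes at their derived errors. Under the normal distribution assumed, the 95% interval lay within 2-fold for Commd1, Impact, Sgce, Plagl1 and Igf2r, 5 of the 10 genes. The same held for 7572 of the 10963 tested genes. For Peg3, Mest, Grb10 and Cdkn1c the interval reached beyond 2-fold on one side, so a 2-fold change in that direction is not excluded. Of the 10 genes, 5 had positive and 5 negative log2FC values in the authors' deposited table, with a median of 0.09. Over the 10963 tested genes, 5126 were positive and 5837 negative.

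**Figure D3:**
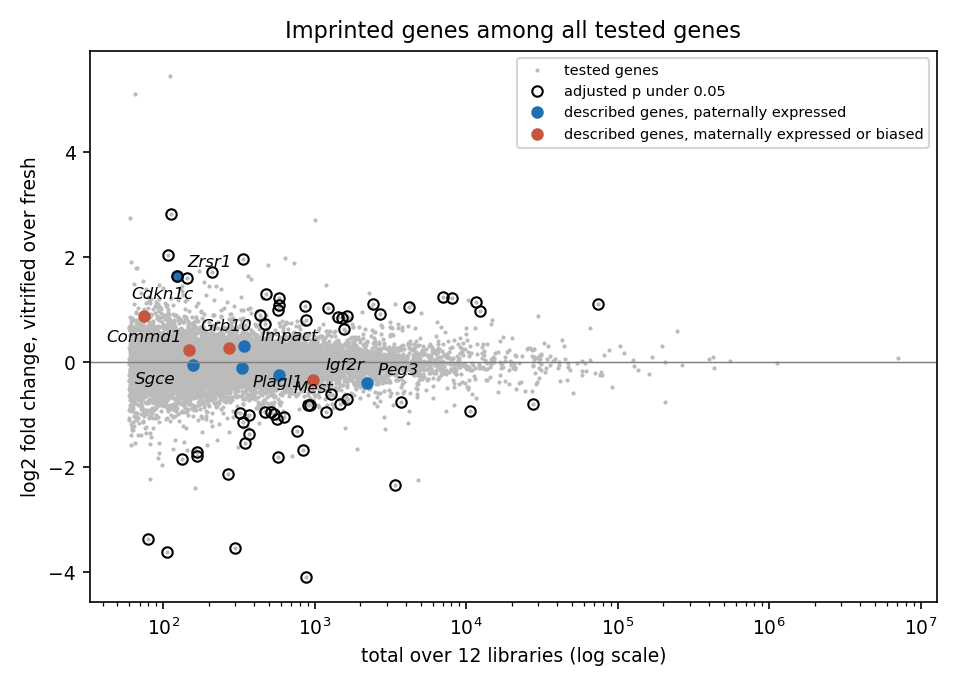
Log2FC, vitrified over fresh, against the total over 12 libraries on a log axis, for the 10963 tested genes (grey), with the 10 genes in colour and genes with an adjusted p under 0.05 circled. Zrsr1, at a total of 124 and 1.65, lies at the upper edge of the grey cloud, and the other 9 genes lie within it between -0.40 and 0.88.

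By total per kb of annotated exon, Peg3 was highest of the 10 genes with 167, followed by Mest with 148 and Igf2r with 105, from totals in the authors' deposited table. Impact had 66.9, Plagl1 42.4, Cdkn1c 36.6 and Grb10 30.0 per kb in the same terms. Zrsr1 with 27.6, Commd1 with 25.1 and Sgce with 14.8 per kb were lowest. These levels are pooled over both groups and have no spread, so neighbours in this order cannot be said to differ. Reads from the opposite strand could add to Mest, which shares 912 exonic bases with Copg2 (log2FC -0.32, adjusted p = 0.96), and to Cdkn1c, of whose windows 29.1% occur in the antisense gene Gm44732. Igf2r shares 0 exonic bases with Airn, its antisense partner, though their spans overlap over 28354 bases.

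Other imprinted genes were described from a list of 71 with the 10 above, in which some genes are imprinted only in placenta, brain or for some transcripts. Of the paternal list, 23 of 34 genes were tested, and 1, Zrsr1, passed in the authors' test. By the unadjusted p, with the same limit of 0.05, 1 was higher and 2 were lower, against 3.24% and 3.79% of all tested genes. The median log2FC of the list was -0.08. The lower genes were Jade1, a chromatin gene, at -0.67 (adjusted p = 0.53) and the retrotransposon-derived gene Peg10 at -1.30 (adjusted p = 0.71) in the authors' deposited table. Snrpn, a spliceosomal protein gene, stood at -0.58 with adjusted p = 0.83 in the authors' deposited table. Peg10 starts at 4747306 on the plus strand of chromosome 6, next to the start of Sgce at 4747207 on the minus strand, and their log2FC values were -1.30 (-2.59 to -0.01) and -0.06 in the authors' deposited table.

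Of the maternal list, 22 of 37 genes were tested and 0 passed in the authors' test. With the limit of 0.05 on the unadjusted p, where 3.24% of all tested genes were higher and 3.79% lower, 1 was higher and 1 lower. These were H13, a signal peptide peptidase gene, at 0.25 (adjusted p = 0.69) and Ago2, the slicer of RNA interference, at -0.59 (adjusted p = 0.30) on the log2 scale in the authors' deposited table. Blcap had a log2FC of 0.38 and adjusted p = 0.77 in the authors' deposited table. The median was 0.03, and 17 of the 22 intervals lay within 2-fold. Without the 10 genes, 35 tested imprinted genes remained, of which 0 passed in the authors' test, and their median was -0.03. Of these 35, 4 had an unadjusted p under 0.05, against 7.02% of all tested genes. Positive values were found in 17 of them, against 5126 of the 10963 tested genes.

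Partners at the same imprinted regions, chosen after their values were seen, are given side by side. At the Igf2r locus, the antisense RNA Airn, which silences the paternal Igf2r copy, had a log2FC of 0.48 (-0.28 to 1.23), against -0.34 for Igf2r, in the authors' deposited table. Near Cdkn1c, the antisense RNA Kcnq1ot1, whose transcription silences the paternal Cdkn1c copy, stood at -0.08 (-0.49 to 0.33) on the log2 scale in the authors' deposited table. Igf2, the ligand of Igf2r, had a log2FC of -2.41 on a total of 163 in the authors' deposited table, with an interval of -5.53 to 0.72 that allows either direction. The maternally expressed RNA Meg3 and its paternal neighbour Dlk1 had log2FC values of 0.54 and 0.80 in the authors' deposited table, with adjusted p = 0.83 and adjusted p = 0.90. On the same chromosome, Rian of the maternal list and Rtl1 of the paternal list stood at 0.08 and 0.31 on the log2 scale. Adjusted p was 0.999 for each in the authors' deposited table.

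Other genes nested in a host were also set beside Zrsr1 and Commd1. Mcts2, a retrogene inside H13, had a log2FC of 0.41 (-0.45 to 1.27) in the authors' deposited table, against 0.25 for H13. Nap1l5, a retrogene inside Herc3, had a log2FC of -0.08 (-0.54 to 0.38) in the authors' deposited table, against -0.05 for Herc3. Nnat inside Blcap stood at -0.62 (-1.48 to 0.24) and Peg13 inside Trappc9 at -0.14 (-0.66 to 0.37) on the log2 scale in the authors' deposited table, and neither passed. Nap1l5 had a total of 47353 in the authors' deposited table, or 25679 per kb, the highest of the tested imprinted genes on both scales, against 258 for its host Herc3.

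**Figure D4:**
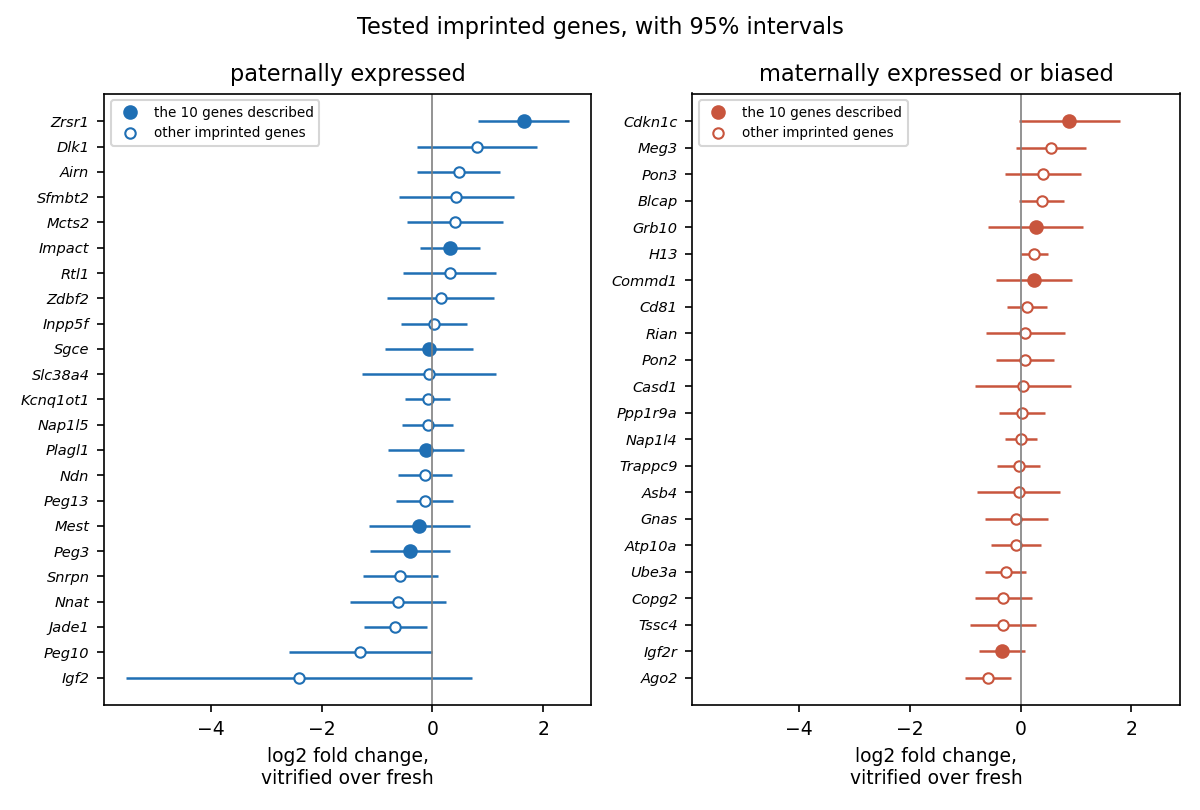
Log2FC, vitrified over fresh (x axis), with derived 95% intervals, for the 23 tested genes of the paternal list and the 22 of the maternal list, sorted by value. Filled points are the 10 genes and open points other imprinted genes. Zrsr1 has the highest value of the paternal list at 1.65, and Igf2 the lowest at -2.41 with the widest interval.

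Genes that set, read or maintain imprints, a list of 29, included 23 tested genes, of which 0 passed the adjusted p in the authors' test. At an unadjusted p under 0.05, where 3.79% of all tested genes were lower and 3.24% higher, 2 were lower and 0 were higher. These were Tet1, which oxidises methylated cytosine, with a log2FC of -0.80 and adjusted p = 0.13, and Dnmt1, the maintenance methyltransferase, with -0.90 and adjusted p = 0.23, both in the authors' deposited table. Padi6, an oocyte gene of the subcortical maternal complex, stood at 1.24 and the corepressor gene Trim28 at -0.28 on the log2 scale in the authors' deposited table, with adjusted p = 0.88 and adjusted p = 0.89. Of the 23 genes, 16 were negative, where 5837 of the 10963 tested genes were, and the median was -0.08.

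Partners of the other proteins were covered by shorter lists, and in each of them 0 genes passed in the authors' test. Beside their counts at an unadjusted p under 0.05, the shares over all tested genes were 3.24% higher and 3.79% lower. For the insulin-like growth factor axis of Igf2r and Grb10, 15 genes were tested, with 1 higher and 1 lower when the limit of 0.05 was put on the unadjusted p and a median of -0.06. Grb14, a relative of Grb10, had a log2FC of -0.59 and adjusted p = 0.17 in the authors' deposited table. The binding protein gene Igfbp7 stood at 0.87 (adjusted p = 0.21) and Igfbp5 at -0.61 (adjusted p = 0.92) on the log2 scale in the authors' deposited table. The Cdkn1c relatives Cdkn1a and Cdkn1b had log2FC values of -0.22 and -0.26 in the authors' deposited table, with 0 of 2 at an unadjusted p under 0.05.

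The COMMD family without Commd1, listed with Ccdc22, Ccdc93 and Vps35l, had 12 tested genes, 0 of them at an unadjusted p under 0.05. Their log2FC values lay between -0.34 for Commd8 and 0.37 for Commd2 in the authors' deposited table. Commd7 stood at -0.21 and Commd4 at -0.23 on the log2 scale in the authors' deposited table, and the median was -0.08. In the GCN2 pathway, on which Impact acts, 9 genes were tested and 1 was lower at an unadjusted p under 0.05. This was the phosphatase regulator gene Ppp1r15a at -0.64 (adjusted p = 0.69), while Gcn1, which Impact binds, stood at -0.48, Atf4 at -0.16 and Ppp1r15b at -0.08 on the log2 scale in the authors' deposited table, and the list's median was -0.06. Among partners of Sgce in the sarcoglycan and dystrophin complexes, 5 genes were tested and 0 were under an unadjusted p of 0.05, with a median of 0.03. Sspn stood at -0.33, Dag1 at 0.23, Dmd at 0.07 and Sgcb at 0.03 on the log2 scale in the authors' deposited table. The Plagl1 relative Plagl2 had a log2FC of -0.10 in the authors' deposited table, with 0 of 1 at an unadjusted p under 0.05.

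Markers of the cell types of a follicle were read beside these values. Of all 10963 tested genes, 7.02% had an unadjusted p under 0.05 in the authors' test, 3.24% higher and 3.79% lower. By sign, 5126 of them were positive and 5837 negative. Granulosa markers had 13 tested genes, with a median log2FC of -0.02, and 1 was higher and 2 were lower by the unadjusted p. Fshr, the receptor for follicle-stimulating hormone, stood at 0.67, Fst at -0.82, Inhbb at -0.57 and Foxl2 at -0.40 on the log2 scale in the authors' deposited table. The summed total of the granulosa markers, 2189390, stood against 2041 for the 13 listed oocyte markers and 64495 for the 12 theca markers in the authors' deposited table. Most of the granulosa sum came from Inha with 1121840, Gja1 with 548309 and Inhba with 428344. Of the 20 oocyte markers, 7 were absent. These sums are not scaled by gene length and do not give shares of cells. All 10 tested oocyte markers were positive, with a median of 0.63, but 0 of these 10 were under an unadjusted p of 0.05. Oas1d at 0.84, Padi6 at 1.24, Zp2 at 1.29 and Zp3 at 1.05 had the lowest p of them. Of the listed oocyte markers with no adjusted p, Nlrp5 stood at 0.92 and Nobox at 0.83. Dazl, also with none and on a total of 44.3, stood at -2.14 with an unadjusted p of 0.0030 in the authors' test. These values are on the log2 scale in the authors' deposited table. Theca markers had a median of 0.27 over 12 tested genes, with 3 higher and 1 lower by the unadjusted p, namely Aldh1a1 at 1.19, Star at 1.60, Insl3 at 2.70 and Fbln1 at -0.50 on the log2 scale in the authors' deposited table. All 7 tested endothelial markers were negative, with a median of -0.81 and 0 under an unadjusted p of 0.05. Among them were Cdh5 at -1.66, Flt1 at -1.54, Pecam1 at -1.25 and Egfl7 at -0.40 on the log2 scale in the authors' deposited table. Of 8 immune markers 1, Lyz2, was tested, at -1.05 in the authors' deposited table, and the red cell markers were not analysed here. No marker of these lists passed the adjusted p, and their part in the values of Zrsr1 and the other imprinted genes was not tested.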

How the data were processed

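Values came from 1 table, in which the authors set vitrified against fresh follicles, 6 libraries of each, grouped here by sample title. Per the submitters' processing notes, Bowtie2, HISAT2, Partek and DESeq2 and the build mm10 were used, with no version, role or order. The columns deposited by the authors are, per the file headers, a total count (pooled over libraries), the p-value, its step-up adjusted form, and the fold change on a signed and on a log2 scale. Whole numbers, within 0.001, make up 0.237% of the totals. No value per follicle is given, so no count model was run, and depth per library is unknown. An adjusted p is missing for 843 genes, those with a total of at most 59.4.

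The authors' test was used as deposited, taking an adjusted p under 0.05 as the threshold. A standard error and 95% interval were derived from each log2 fold change and p-value, assuming a two-sided normal test, in Python 3.11.15 with scipy 1.17.1. The arithmetic of the step was run on data simulated under the same normal assumption, so that run cannot check the assumption. The change needed to pass is that error times 3.66, the statistic of the highest p called. Exons came from GENCODE M21 (GRCm38, called mm10) and promoters from RefSeq. Genes, lists and tests were chosen with earlier results of these data known. Named are the 10 genes, genes overlapping them, and the genes of each list that passed or otherwise had the 4 lowest p. Outside that rule, chosen after their values were seen, were B3gnt2, U2af1, U2af2 and the partners at imprinted regions. The genes nested in a host, their hosts and the oocyte markers with no adjusted p were also outside it.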

Additional observations from a re-analysis of the deposited data

How the results depend on the processing

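Alternatives changed the set of genes adjusted over, the distribution behind the p and the centring of fold changes. Reading the derived statistic against a t distribution with 10 degrees of freedom left 0 genes called, 0 higher and 0 lower, instead of 58, 27 and 31, and so 0 of the 10 genes and 0 of the paternal list, with an adjusted p of 0.78 for Zrsr1. That loss follows from heavier tails, and whether this distribution suits the authors' test is not known here. The adjusted p of Zrsr1 was 0.025 over all 11806 genes and 0.020 over the 8808 genes with a total of at least 120, where 58 and 57 genes were called. Zrsr1, with a total of 124, lies just above that minimum, so this setting could not drop it. A minimum above 124 would have removed it. Cdkn1c falls under that minimum total and has no value there. The median of all tested genes was -0.02, and Sgce, nearest to 0 of the 10 genes, stood at -0.06 on the log2 scale. Centring on that median thus could not change the sign of any of the 10 genes. No paired analysis was possible because the table holds no value per follicle, and other pseudocounts, filters per library and normalizations, which need such values, were not run. The depth of each library is unknown, and its part in the precision was not tested.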
